A study of Mus musculus with 3 samples.

Results

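The 8 genes described here, of platelet-derived growth factor (PDGF) signalling and of pericytes, were measured by RNA sequencing of mouse skeletal mesenchyme at E15.5, a stage of the embryo at which skull bones are forming. They are the 4 ligand genes Pdgfa, Pdgfb, Pdgfc and Pdgfd, the 2 receptor genes Pdgfra and Pdgfrb, and the pericyte genes Rgs5 and Cspg4. They were taken by symbol from a chosen list, and all 8 were found among the 43280 genes of each table. The tissue is described as calvarial, the source of the flat skull bones, and the material as primary cells. The dTF-cKO library carried one floxed and one dm allele of beta-catenin (fx/dm) with Dermo1-Cre, a recombinase placed in the Twist2 gene and active in mesenchymal progenitors. The cKO library was homozygous for the floxed allele (fx/fx) and had the same Cre. The control was fx/fx and its genotype label lists no Cre. The labels do not define dm; a beta-catenin allele of that name is known in mice to keep adhesion and to lack transcriptional output. There was 1 library per genotype, and the labels do not say how many embryos went into it, so no difference has a replicate check and no test of genotype was possible.

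PDGF ligands are secreted dimers that bind receptor tyrosine kinases on mesenchymal cells. PDGF-A and PDGF-C act mainly through PDGF receptor alpha, which marks neural crest and mesodermal mesenchyme and is needed for craniofacial development, and PDGF-B and PDGF-D act mainly through PDGF receptor beta. Endothelial cells release PDGF-B, and pericytes, the mural cells around capillaries, carry the beta receptor and are recruited by it. Epithelia are a common source of PDGF-A for the mesenchyme beneath them.

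The libraries held 2905264 counts for the dTF-cKO, 2678457 for the cKO and 3634819 for the control. Ctnnb1, the targeted gene, stood at 442 CPM in the dTF-cKO, 745 CPM in the cKO library and 1026 CPM in the control (CPM, counts relative to library size after TMM scaling). Counts cover the whole gene, so transcripts of the different alleles were not separated. Uty, Kdm5d, Ddx3y and Eif2s3y, all Y-linked, had 444 counts together in the dTF-cKO, 362 in the cKO library and 0 in the control (a count of 0 allows up to 0.839 CPM). Sex-linked transcripts and genotype therefore cannot be told apart. Osteoblast genes marked all libraries unequally, with 8301 CPM in the dTF-cKO, 39391 CPM in the cKO library and 185832 CPM in the control summed over 13 genes. The epidermis list of 12 genes summed to 13491 CPM in the dTF-cKO and 20393 CPM in the cKO, against 154 CPM in the control.

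Promoter windows from RefSeq on GRCm38.p6, reaching 250 bases before to 50 bases after a start site, are shown for 3 genes that were lower and 1 that was higher in the dTF-cKO. Capitals mark CpG dinucleotides, and each window reads 5′ to 3′ along its gene. Pdgfra lies at chr5:75152001-75152300 on the plus strand, Rgs5 at chr1:169655251-169655550 on the plus strand, Cspg4 at chr9:56864854-56865153 on the plus strand and the upstream window of Pdgfa at chr5:138994895-138995194 on the minus strand.
Pdgfra: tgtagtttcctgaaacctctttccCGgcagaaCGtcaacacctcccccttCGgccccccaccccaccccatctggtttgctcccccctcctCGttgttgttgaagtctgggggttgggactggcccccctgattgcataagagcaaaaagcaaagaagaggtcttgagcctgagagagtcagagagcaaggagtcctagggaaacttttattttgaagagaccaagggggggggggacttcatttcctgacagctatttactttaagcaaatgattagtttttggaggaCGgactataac
Rgs5: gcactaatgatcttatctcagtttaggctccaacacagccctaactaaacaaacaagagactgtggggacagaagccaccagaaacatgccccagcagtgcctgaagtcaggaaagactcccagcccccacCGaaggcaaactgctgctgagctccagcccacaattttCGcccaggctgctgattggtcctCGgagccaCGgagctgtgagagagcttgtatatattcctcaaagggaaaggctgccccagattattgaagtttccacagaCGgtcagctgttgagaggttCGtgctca
Cspg4: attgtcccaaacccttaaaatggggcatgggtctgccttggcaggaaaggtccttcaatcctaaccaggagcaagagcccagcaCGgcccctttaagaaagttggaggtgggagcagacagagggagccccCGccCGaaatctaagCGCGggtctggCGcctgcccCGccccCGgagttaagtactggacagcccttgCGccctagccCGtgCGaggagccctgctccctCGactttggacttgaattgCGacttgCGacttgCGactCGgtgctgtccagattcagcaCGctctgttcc
Pdgfa: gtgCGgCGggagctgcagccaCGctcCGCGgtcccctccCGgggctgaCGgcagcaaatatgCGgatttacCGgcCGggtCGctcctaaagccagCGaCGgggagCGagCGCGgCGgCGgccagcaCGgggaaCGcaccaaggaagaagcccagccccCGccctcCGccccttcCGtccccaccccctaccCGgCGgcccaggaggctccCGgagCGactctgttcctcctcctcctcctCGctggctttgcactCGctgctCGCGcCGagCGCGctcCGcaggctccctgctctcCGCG
The Pdgfra window held 5 CpG at 51.0% G and C, and the Rgs5 window 6 at 52.3%. The Cspg4 window held 17 at 60.0%, and this Pdgfa window 37 at 73.3%; the median over 32851 RefSeq promoter windows of this length was 52.7% G and C. The windows of Pdgfc and Pdgfd held 8 CpG each, and a second Pdgfa window held 24. The TCF/LEF core, written as CTTTGAT or CTTTGAA and searched on both strands, was in none of these 7 windows, and 8.65% of the 32851 windows held at least one of these forms. That says only that these letters are not in these windows. No window of Pdgfb was found, and Pdgfrb was left out before the search, so neither gene was read for the motif.

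The genes are spread over the genome. On mm10, annotated by GENCODE vM21, Pdgfa (ENSMUSG00000025856) covers bases 138976014 to 138997370 of chromosome 5 on the minus strand, and Pdgfra (ENSMUSG00000029231) bases 75152292 to 75198215 of the same chromosome on the plus strand. Pdgfb (ENSMUSG00000000489) covers 79995874 to 80014977 of chromosome 15, minus strand, and Pdgfc (ENSMUSG00000028019) 81036416 to 81214040 of chromosome 3, plus strand. Pdgfd (ENSMUSG00000032006) covers 6168584 to 6378850 and Cspg4 (ENSMUSG00000032911) 56865033 to 56899870 of chromosome 9, both on the plus strand. Pdgfrb (ENSMUSG00000024620) covers 61045150 to 61085061 of chromosome 18 and Rgs5 (ENSMUSG00000026678) 169655501 to 169695813 of chromosome 1, both on the plus strand. Counts are over whole genes, exons and untranslated regions not being distinguished. An antisense gene, 6330403L08Rik, shares 813 exon bases with Pdgfa, and without a stated strand setting reads there cannot be assigned to one of them. That gene had 11 counts in the dTF-cKO, 25 in the cKO library and 61 in the control. The same limit holds for shorter overlaps with genes on the opposite strand. Gm42802 shares 456 exon bases and Gm42803 166 with Pdgfra, and Gm16000 shares 147 with Pdgfc. The microRNA gene Mir7025 shares 30 with Pdgfra on the same strand.

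Among the ligands, Pdgfa was higher in the dTF-cKO than in the other libraries, Pdgfd was lower, and Pdgfb and Pdgfc differed less. Pdgfa, the alpha receptor ligand, had 320 counts (114 CPM) in the dTF-cKO, 146 counts (51.6 CPM) in the cKO library and 199 counts (55.7 CPM) in the control. Its ratio was 2.05-fold higher in the dTF-cKO than in control mesenchyme (1.72 to 2.46) and 2.21-fold higher than in the cKO (1.81 to 2.71). Here and below, brackets after a ratio of scaled counts hold the exact 95% counting interval; no molecular identifiers are mentioned, so PCR copies may be counted more than 1 time and an interval covers counting error alone and says nothing of how embryos vary. In the cKO the Pdgfa ratio to the control was 0.928 (0.744 to 1.15), an interval that includes 1. The difference from the control was close to the 2-fold rule used for a call, and its log2 value, 1.03 as reported, ran between 0.67 without the 20 most abundant genes and 2.86 with endothelial genes centred; with stromal genes centred it was 2.57.

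Pdgfb, the ligand released by endothelium, had 80 counts (28.6 CPM) in the dTF-cKO, 111 (39.3 CPM) in the cKO library and 126 (35.2 CPM) in the control. Its ratio to the control was 0.811 (0.605 to 1.08) in the dTF-cKO and 1.11 (0.855 to 1.45) in the cKO, and both intervals include 1. Between the dTF-cKO and the cKO the Pdgfb ratio was 0.728 (0.539 to 0.979), an interval that excludes 1, short of the 2-fold rule. Pdgfc, a ligand with a CUB domain that is cut off before it binds the alpha receptor, had 54 counts (19.3 CPM) in the dTF-cKO, 100 (35.4 CPM) in the cKO library and 111 (31.0 CPM) in the control. It was 1.61-fold lower in the dTF-cKO than in control mesenchyme (1.15 to 2.27) and 1.83-fold lower than in the cKO (1.30 to 2.60), below the 2-fold rule in both. Under the scalings to endothelial or stromal genes given further on, Pdgfb and Pdgfc in the dTF-cKO turned to the higher side of both other libraries. Pdgfd, the CUB-domain ligand of the beta receptor, was the least abundant, with 3 counts in the dTF-cKO, 24 in the cKO library and 40 in the control. It was 10.4-fold lower in the dTF-cKO than in control mesenchyme, with a wide interval of 3.32 to 52.7. It was 7.92-fold lower than in the cKO (2.41 to 41.1), and 3 counts is the limit that a count of 0 allows.

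**Figure D1:**
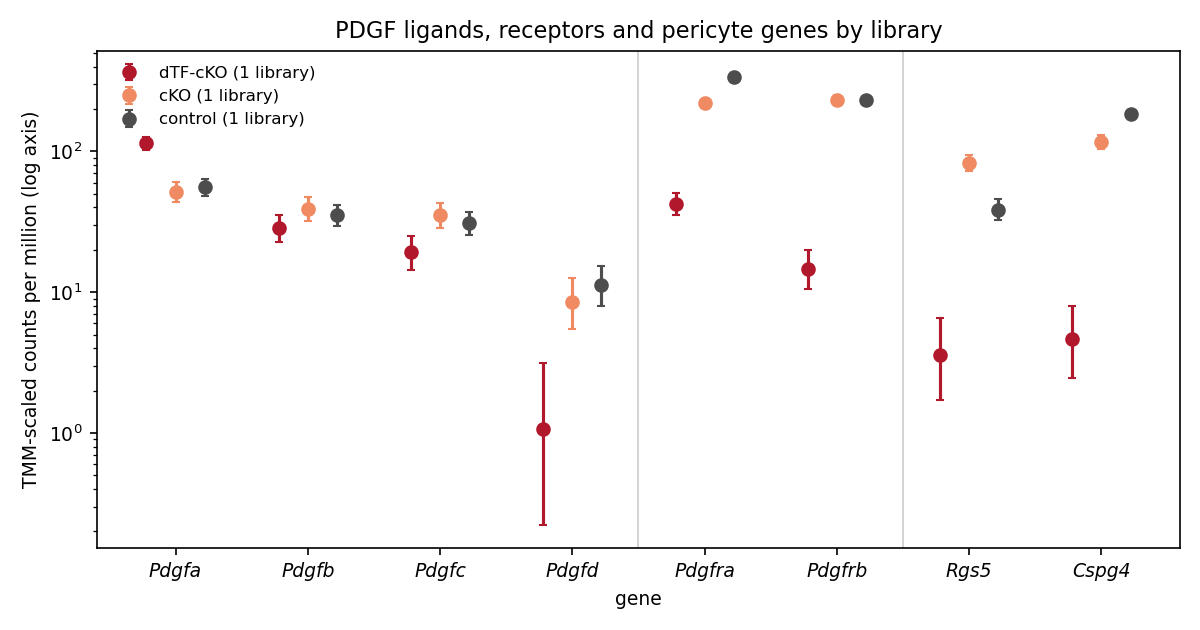
TMM-scaled CPM (log axis) of the 8 genes in the dTF-cKO, cKO and control libraries; each point is 1 library and bars are exact Poisson 95% counting intervals. The cKO and control points lie near each other for most genes, whereas the dTF-cKO points of Pdgfd, Pdgfra, Pdgfrb, Rgs5 and Cspg4 lie below both, and that of Pdgfa above both.

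The ligand mixture differed with the library. Per length of annotated exon, Pdgfa made up 76.9% of the summed ligand level in the dTF-cKO, 46.5% in the cKO library and 49.6% in the control. Pdgfb made up 14.4% in the dTF-cKO, 26.5% in the cKO library and 23.6% in the control, and Pdgfd 0.713%, 7.55% and 9.86% in that order of libraries. Pdgfa led the ligands in every library, and the order Pdgfa, Pdgfb, Pdgfc, Pdgfd was the same in all 3. Ratios within a library do not depend on scaling. Pdgfa had 4 counts per Pdgfb count in the dTF-cKO (3.12 to 5.18), 1.32 in the cKO (1.02 to 1.70) and 1.58 in the control (1.26 to 1.99); the dTF-cKO interval stood apart from the other intervals.

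**Figure D2:**
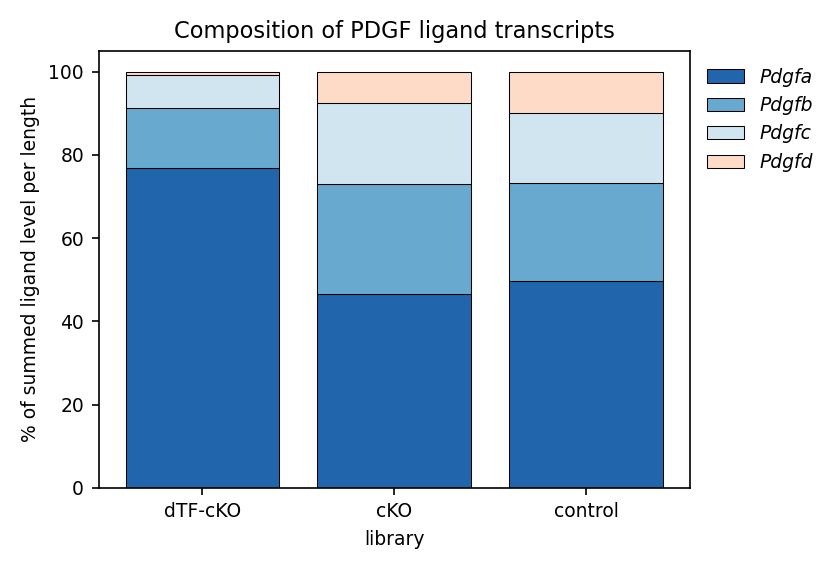
Share of each PDGF ligand gene (percent) in the summed ligand level per exon length, with 1 bar per library. Pdgfa fills 76.9% of the dTF-cKO bar and under 50% of the cKO and control bars.

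Both receptors were lower in the dTF-cKO, and under the reported scaling only the alpha receptor was lower in the cKO beyond counting error. Pdgfra had 119 counts (42.5 CPM) in the dTF-cKO, 621 (220 CPM) in the cKO library and 1212 (339 CPM) in the control, so the libraries stood in that order with intervals that do not overlap. It was 1.54-fold lower in the cKO than in control mesenchyme (1.40 to 1.70), which missed the 2-fold rule, and 7.97-fold lower in the dTF-cKO (6.60 to 9.71). Pdgfrb had 41 counts (14.6 CPM) in the dTF-cKO, 659 (233 CPM) in the cKO library and 824 (230.5 CPM) in the control. The cKO to control ratio was 1.01 (0.912 to 1.12), while the dTF-cKO was 15.7-fold lower than the control (11.5 to 22.1) and 15.9-fold lower than the cKO (11.6 to 22.4). Fewer cells of a type and less RNA per cell cannot be told apart in bulk RNA.

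The balance of the receptors changed within each library. Per length, Pdgfrb stood at 0.630 of the Pdgfra level in the dTF-cKO (0.431 to 0.906), 1.94 in the cKO (1.74 to 2.17) and 1.24 in the control (1.14 to 1.36). These intervals do not overlap: per length, the beta receptor was the more abundant in the cKO library and the control and the less abundant in the dTF-cKO. In counts not divided by length, Pdgfrb stood at 1.06 of Pdgfra in the cKO (0.950 to 1.19) and 0.680 in the control (0.622 to 0.743). The order in the control thus depends on the exon lengths used, 5478 bases for Pdgfrb and 10024 for Pdgfra, and the intervals do not cover that choice. Ranked per length among 11637 genes with a known exon length, Pdgfrb was number 8509 in the dTF-cKO, 911 in the cKO library and 930 in the control. Pdgfra was number 7226 in the dTF-cKO, 1927 in the cKO library and 1194 in the control. Among the ligands, Pdgfa and Pdgfb stood above their main receptor in the dTF-cKO and below it in the other libraries. Per length, Pdgfa stood at 8.64 of Pdgfra in the dTF-cKO (6.98 to 10.8), 0.756 in the cKO (0.627 to 0.906) and 0.528 in the control (0.452 to 0.614). Pdgfb stood at 2.57 of Pdgfrb in the dTF-cKO (1.74 to 3.84), 0.222 in the cKO (0.180 to 0.272) and 0.201 in the control (0.166 to 0.243). In the dTF-cKO, Pdgfc at 3.79 CPM per kilobase of exon was not above Pdgfra at 4.24, and Pdgfd at 0.340 was below Pdgfrb at 2.67.

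The pericyte genes went different ways in the cKO library and were both near the bottom in the dTF-cKO. Rgs5 encodes a regulator of G protein signalling enriched in pericytes. It had 10 counts (3.57 CPM) in the dTF-cKO, 235 (83.1 CPM) in the cKO library and 138 (38.6 CPM) in the control. Relative to the control, Rgs5 was 10.8-fold lower in the dTF-cKO (5.70 to 23.0) and 2.15-fold higher in the cKO (1.74 to 2.68); with endothelial genes centred, as given further on, the cKO log2 difference was 0.55 in place of 1.09. Of the 8 genes it was the one with a 2-fold higher level in the cKO, and in that comparison 8.61% of all measured genes had a larger log2 difference. Cspg4 encodes the proteoglycan NG2 of pericytes, which other immature mesenchymal and glial precursors also carry. It had 13 counts (4.64 CPM) in the dTF-cKO, 331 (117 CPM) in the cKO library and 656 (183 CPM) in the control. It was 1.57-fold lower in the cKO than in control mesenchyme (1.37 to 1.79) and 39.5-fold lower in the dTF-cKO (22.9 to 74.6). Against the control, 99.5% of measured genes had a higher log2 difference in the dTF-cKO than Cspg4.

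Rgs5 and Cspg4 are both used to mark pericytes, yet their ratio differed. Rgs5 had 0.769 counts per Cspg4 count in the dTF-cKO (0.302 to 1.90), 0.710 in the cKO (0.598 to 0.842) and 0.210 in the control (0.174 to 0.253). The cKO and control intervals do not overlap, and the dTF-cKO interval, resting on 10 and 13 counts, includes the cKO value. Per Pdgfrb count, Rgs5 stood at 0.244 in the dTF-cKO (0.109 to 0.495), 0.357 in the cKO (0.306 to 0.414) and 0.167 in the control (0.139 to 0.201). Cspg4 per Pdgfrb count stood at 0.317 in the dTF-cKO (0.156 to 0.604), 0.502 in the cKO (0.439 to 0.574) and 0.796 in the control (0.717 to 0.883). In the cKO, then, Rgs5 was higher and Cspg4 lower relative to Pdgfrb than in control mesenchyme.

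Counted over the 8 genes, a call being a log2 difference of at least 1 in size, 0 were lower and 1 higher in the cKO than in control mesenchyme, where 6.78% of the 12127 genes above an expression floor of 5 CPM were lower and 9.66% higher. In the dTF-cKO against the control 5 were lower and 1 higher, with a background of 20.9% lower and 19.5% higher. In the dTF-cKO against the cKO 5 were lower and 1 higher, with a background of 20.5% lower and 14.5% higher. With a 1.5-fold rule the counts were 2 lower and 1 higher in the cKO than in control mesenchyme (background 13.2% and 18.1%), 6 lower and 1 higher in the dTF-cKO than in control mesenchyme (29.5% and 31.3%), and 6 lower and 1 higher in the dTF-cKO than in the cKO (30.4% and 26.7%). With a 3-fold rule they were 0 lower and 0 higher in the cKO than in control mesenchyme (3.15% and 5.71%), and 5 lower and 0 higher in the dTF-cKO both against the control (13.1% and 10.3%) and against the cKO (12.5% and 5.85%). The median log2 difference over the 8 genes was -0.05 in the cKO library and -2.88 in the dTF-cKO against the control, and -2.38 between the dTF-cKO and the cKO, where the medians of all genes were 0.06, 0.06 and 0.01. The comparisons share libraries and are not independent of each other. All 8 genes passed the expression floor, Pdgfd, Rgs5 and Cspg4 through their counts in the cKO library and the control. In the dTF-cKO these stood at 1.07, 3.57 and 4.64 CPM, below the floor.

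**Figure D3:**
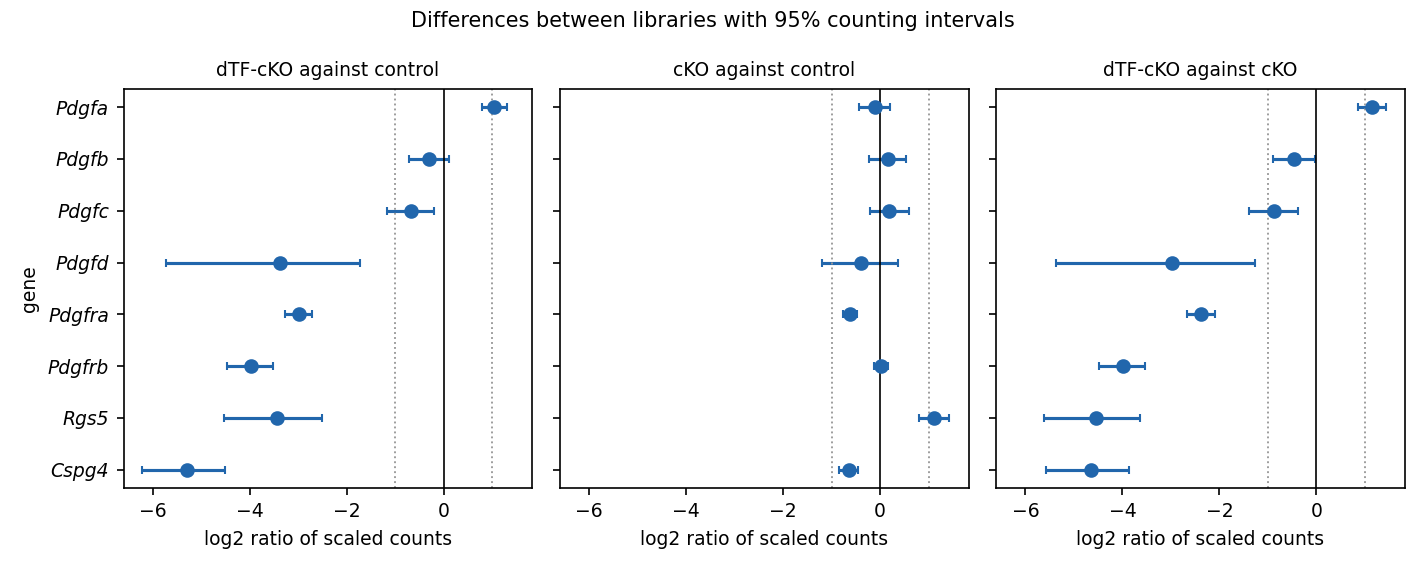
Log2 ratios of scaled counts for the 8 genes in 3 comparisons, the first-named library over the second, with 95% counting intervals; dotted lines mark 2-fold. In the dTF-cKO against either other library, Pdgfd, both receptors, Rgs5 and Cspg4 lie left of the 2-fold line and Pdgfa right of it, while in the cKO against the control Rgs5 alone passes 2-fold.

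Of the genes that carry the PDGF signal inside the cell, shares near or below those of all genes were 2-fold different. Of 32 such genes, 1 was higher and 0 lower in the cKO than in control mesenchyme, and 5 were higher and 4 lower in the dTF-cKO (medians 0.19 and 0.32). Between the dTF-cKO and the cKO 4 were higher and 4 lower (median -0.05). Over all genes 9.66% were higher and 6.78% lower in the cKO than in control mesenchyme, 19.5% and 20.9% in the dTF-cKO than in control mesenchyme, and 14.5% and 20.5% in the dTF-cKO than in the cKO, and the list counts that follow are read against these shares. Nras, a Ras GTPase downstream of receptor kinases, stood at 254 CPM in the dTF-cKO, 112 CPM in the cKO library and 69.1 CPM in the control. Map2k1, the kinase of ERK, stood at 175 CPM in the dTF-cKO, 63.7 CPM in the cKO library and 65.5 CPM in the control. Both were at least 2-fold higher in the dTF-cKO than in either other library, as Mapk3, which encodes ERK1, was against the control at 2.65-fold (2.33 to 3.02). Hras, another Ras GTPase, was higher with either Cre-carrying genotype than in control mesenchyme, 2.44-fold in the dTF-cKO (2.05 to 2.92) and 2.64-fold in the cKO (2.23 to 3.15). Pik3r1, the regulatory subunit of PI3 kinase that docks on the activated receptors, was 2.65-fold lower in the dTF-cKO than in control mesenchyme (2.12 to 3.35). Grb10, an adaptor of receptor kinases and an imprinted gene, was 3.83-fold lower there (3.56 to 4.13). These directions for the dTF-cKO hold under the reported scaling; setting the median of stromal genes to 0 put 26 of the 32 genes at least 2-fold higher and 1 lower, where 69.4% of all genes were higher and 5.99% lower, so that count is not particular to these genes.

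Genes of a mixed list were called in both directions, at numbers too small to set apart from the shares of all genes. The list holds genes whose products process or bind the ligands, together with F3 and the phosphatase genes Ptprj and Ptpn1. Of 10, 1 was higher and 1 lower in the cKO than in control mesenchyme (median -0.34), and 2 were higher and 4 lower in the dTF-cKO (median -0.52). Relative to the cKO, 2 in the dTF-cKO were higher and 2 lower (median -0.03). Plau, the urokinase that can activate PDGF-D, stood at 90.8 CPM in the dTF-cKO, 27.6 CPM in the cKO library and 17.6 CPM in the control. F3, the tissue factor that starts clotting, stood at 125 CPM in the dTF-cKO, 50.9 CPM in the cKO library and 6.99 CPM in the control. Both were higher in the dTF-cKO than in the other libraries, Plau thus on the opposite side from Pdgfd. Nrp1, a co-receptor of several growth factors that endothelium also expresses, stood at 28.6 CPM in the dTF-cKO, 207 CPM in the cKO library and 103 CPM in the control. Sparc, a matrix protein that binds PDGF-B and is abundant in bone, was 4.71-fold lower in the dTF-cKO than in control mesenchyme (4.59 to 4.84) and 2.82-fold lower in the cKO (2.76 to 2.88). Lrp1, a co-receptor of the beta receptor, and Pcsk5, a proprotein convertase, were 2.25-fold (2.11 to 2.40) and 3.62-fold lower (2.69 to 4.96) in the dTF-cKO than in control mesenchyme. With stromal genes centred, 5 of the 10 were higher and 0 lower in the dTF-cKO than in control mesenchyme, against the 69.4% and 5.99% of all genes. The class III receptor kinases related to the PDGF receptors were read too. Csf1r, the macrophage receptor, had 69 counts in the dTF-cKO, 301 in the cKO library and 373 in the control, and Kit, the melanocyte and mast cell receptor, had 46, 133 and 110 in that order. Flt3 had 0 counts in the dTF-cKO, which allows up to 1.07 CPM, and 2 in each of the others.

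Other genes of mural cells were lower in the dTF-cKO as well, with exceptions, and contractile genes split. Of 22 further mural cell genes 18 passed the floor; 3 were higher and 0 lower in the cKO than in control mesenchyme (median 0.31). In the dTF-cKO 2 were higher and 10 lower than in control mesenchyme (median -1.28), and 1 was higher and 12 lower than in the cKO (median -1.42). Abcc9, a subunit of the pericyte potassium channel, had 33 counts in the dTF-cKO, 269 in the cKO library and 198 in the control. Kcnj8, the pore subunit of that channel, chosen after its values were seen, had 5, 152 and 79 counts in that order. Like Rgs5, Kcnj8 was at least 2-fold higher in the cKO than in control mesenchyme, at 2.43-fold (1.84 to 3.24), and lower in the dTF-cKO, at 12.4-fold (5.08 to 39.1). Heyl, a Notch target of mural cells also chosen after its values were seen, had 1 count in the dTF-cKO, 160 in the cKO library and 137 in the control. Notch3 and Mcam of the same list, both chosen after their values were seen, were not 2-fold different in any comparison. Notch3 stood at 208 CPM in the dTF-cKO, 278 CPM in the cKO library and 156 CPM in the control. Mcam stood at 94.0, 107 and 85.6 CPM in that order. Ebf1, a transcription factor, was 5.64-fold lower in the dTF-cKO than in control mesenchyme (3.70 to 8.94), and Anpep, an aminopeptidase of pericytes and fibroblasts, 2.79-fold lower (2.28 to 3.44). Ndufa4l2, a mitochondrial protein induced by hypoxia, was higher than in control mesenchyme in both Cre-carrying libraries, 2.27-fold higher in the dTF-cKO (1.95 to 2.64) and 2.98-fold higher in the cKO (2.59 to 3.45). The other mural gene higher in the dTF-cKO was Cox4i2, a subunit of cytochrome c oxidase, at 2.25-fold (1.55 to 3.30), and the others higher in the cKO were Kcnj8 and Rgs4. Col4a1 and Col4a2, basement membrane collagens that many cells make, were 2.54-fold (2.41 to 2.67) and 2.18-fold lower (2.05 to 2.33) in the dTF-cKO than in the cKO. With stromal genes centred, 5 of the 18 were higher and 5 lower in the dTF-cKO than in control mesenchyme (median 0.25), below the 1.59 of all genes. Under that scaling 69.4% of all genes were higher and 5.99% lower. The 4 genes below the floor had at most 11 counts in any library; Foxf2 and Atp13a5 had 0 in the dTF-cKO, which allows up to 1.07 CPM each.

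Of 13 measured smooth muscle genes, 0 were higher and 3 lower in the cKO than in control mesenchyme, and 4 were higher and 5 lower in the dTF-cKO (medians -0.22 and -0.46). Relative to the cKO, 4 in the dTF-cKO were higher and 4 lower (median 0.10). Acta2, smooth muscle actin, stood at 887 CPM in the dTF-cKO, 187 CPM in the cKO library and 169 CPM in the control. Tagln, an actin-binding protein of contractile cells, had 1002 counts in the dTF-cKO, 153 in the cKO library and 184 in the control. Both were several-fold higher in the library where Pdgfrb, Rgs5 and Cspg4 were low. Mylk, the kinase of myosin light chain, had 33 counts in the dTF-cKO, 253 in the cKO library and 406 in the control, and Des, desmin of muscle and pericytes, had 8, 66 and 290 in that order. Desmin also belongs to skeletal muscle, whose 11 listed genes summed to 11.4 CPM in the dTF-cKO, 306 CPM in the cKO library and 1893 CPM in the control. Smtn, smoothelin, was 2.11-fold lower in the dTF-cKO than in control mesenchyme (1.81 to 2.48). The other smooth muscle genes called lower there were Myh11 and Synpo2, both chosen after their values were seen. Myh11 had 12 counts in the dTF-cKO, 75 in the cKO library and 69 in the control, and was 4.50-fold lower than in the control (2.42 to 9.13). Synpo2 had 2, 18 and 49 counts in that order. Tpm2, a tropomyosin that skeletal muscle also makes, was 2.31-fold lower in the cKO than in control mesenchyme (2.04 to 2.61). With stromal genes centred, 7 of the 13 were higher and 3 lower in the dTF-cKO than in control mesenchyme (median 1.07). Under that scaling 69.4% of all genes were higher and 5.99% lower (median 1.59). These 13 genes are also among those centred, so the count shows no rise particular to them.

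**Figure D4:**
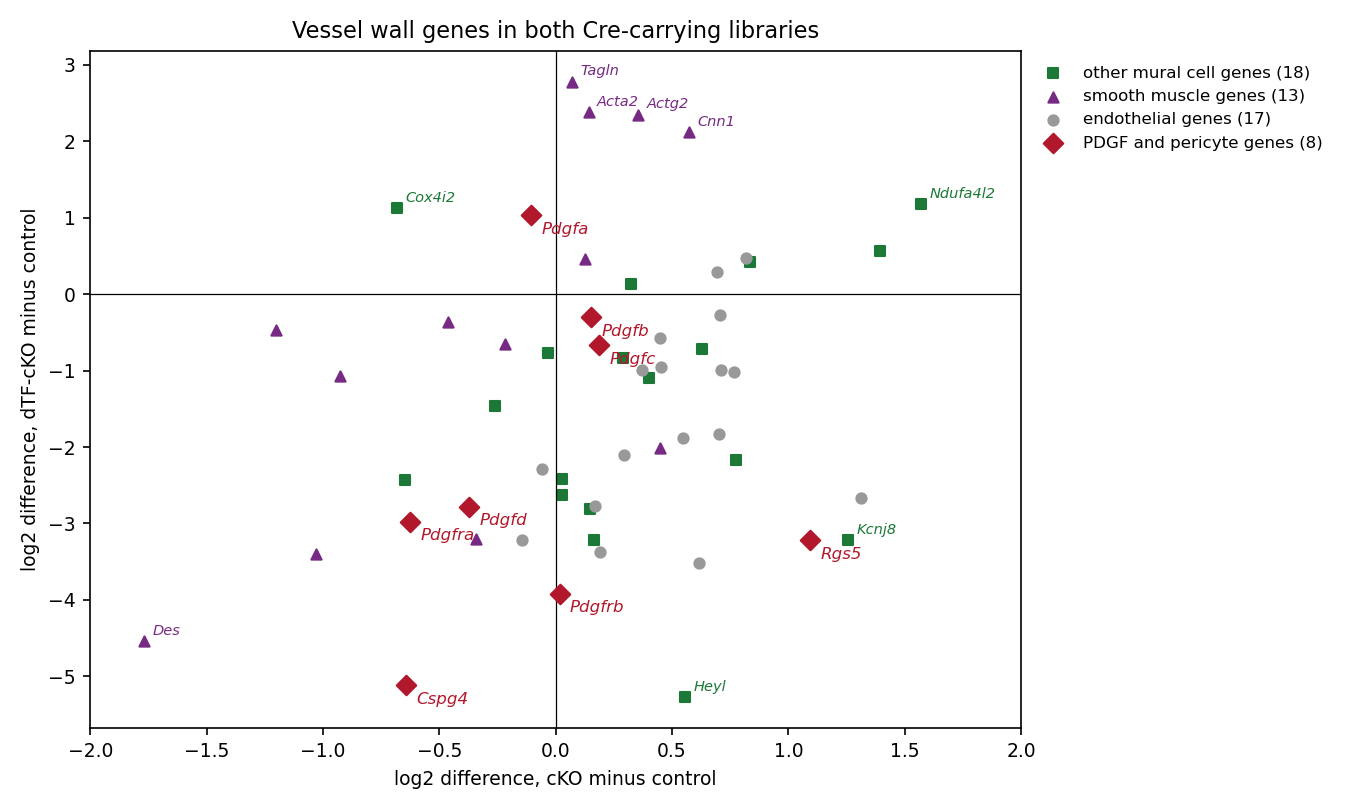
Log2 differences from the control in the cKO (horizontal) and the dTF-cKO (vertical) for the 8 genes, 18 other mural cell, 13 smooth muscle and 17 endothelial genes; both axes share the control library. Rgs5 and Kcnj8 lie at the lower right, Cspg4, Pdgfra and Pdgfd at the lower left, and Tagln, Acta2, Actg2 and Cnn1 above the other genes.

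Markers of other cells moved along with these results, and their part in them was not tested. The 17 endothelial genes, all above 0 in every library, summed to 381 CPM in the dTF-cKO, 1763 CPM in the cKO library and 1232 CPM in the control; 0 were higher and 10 lower in the dTF-cKO than in control mesenchyme (median -1.83), and 1 was higher and 0 lower in the cKO (median 0.55). Per summed endothelial count of the same library, Pdgfrb had 0.0385 counts in the dTF-cKO (0.0274 to 0.0525), 0.132 in the cKO (0.122 to 0.143) and 0.187 in the control (0.173 to 0.202). Cspg4 stood at 0.0122 in the dTF-cKO (0.00647 to 0.0209), 0.0664 in the cKO (0.0593 to 0.0743) and 0.149 in the control (0.137 to 0.162). Rgs5 stood at 0.00938 in the dTF-cKO (0.00449 to 0.0173), 0.0472 in the cKO (0.0412 to 0.0538) and 0.0313 in the control (0.0263 to 0.0371). For these 3 genes the dTF-cKO interval lay below those of both other libraries. Pdgfra stood at 0.112 in the dTF-cKO (0.0916 to 0.135) and 0.125 in the cKO (0.114 to 0.135), with intervals that overlap, against 0.275 in the control (0.258 to 0.293). Pdgfb, an endothelial ligand, stood at 0.0750 in the dTF-cKO (0.0590 to 0.0942), 0.0223 in the cKO (0.0183 to 0.0269) and 0.0286 in the control (0.0238 to 0.0342), so it was higher per endothelial count in the dTF-cKO. That is not particular to Pdgfb. With endothelial genes centred, its log2 difference between the dTF-cKO and the control was 1.54, below the median of 1.89 over all genes. Of all genes, 75.9% were then at least 2-fold higher.

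The 20 dermis and mesenchyme genes summed to 7227 CPM in the dTF-cKO, 16232 CPM in the cKO library and 19782 CPM in the control, with 14 lower and 1 higher in the dTF-cKO than in control mesenchyme. Pdgfra per count of that list stood at 0.00588 in the dTF-cKO (0.00487 to 0.00704), 0.0135 in the cKO (0.0125 to 0.0146) and 0.0171 in the control (0.0162 to 0.0181), and the dTF-cKO interval lay below the others. Epidermal genes were abundant in both Cre-carrying libraries, and Pdgfa was higher in the dTF-cKO. Per epidermal count Pdgfa stood at 0.00848 in the dTF-cKO, 0.00253 in the cKO library and 0.362 in the control. Glial and neuronal genes, which can accompany Pdgfra and Cspg4, summed to 166 CPM and 31.4 CPM in the dTF-cKO, 170 CPM and 51.3 CPM in the cKO, and 207 CPM and 119 CPM in the control. Of the 6 glial genes above the floor, 1 was higher and 2 lower than in control mesenchyme in either Cre-carrying library. Among the 10 found, Olig1 and Olig2 were the ones at 0 in the dTF-cKO; Olig1 had 0 counts in the dTF-cKO, 2 in the cKO library and 10 in the control, and Olig2 had 0, 0 and 17 in that order. Megakaryocyte genes, of cells that store PDGF, summed to 63.2 CPM in the dTF-cKO, 79.2 CPM in the cKO library and 28.5 CPM in the control, and the 10 macrophage genes to 281, 524 and 319 CPM in that order.

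The scaling between libraries set the size of the dTF-cKO differences. When the median of the 17 endothelial genes was set to 0, the median of all genes in the dTF-cKO against the control moved to 1.89 on the log2 scale, and when 60 stromal genes (dermis, meninges, smooth muscle and endothelium) were centred it moved to 1.59. Under the stromal scaling the log2 differences of Cspg4, Pdgfrb, Rgs5, Pdgfra and Pdgfd were -3.58, -2.38, -1.68, -1.44 and -1.24, and under the endothelial scaling -3.28, -2.08, -1.38, -1.14 and -0.95. These 5 genes kept their negative sign under all 8 alternatives, and Pdgfa its positive one, which shows only that their differences were larger than any opposing shift. Pdgfb and Pdgfc changed sign, to 1.24 and 0.87 under the stromal scaling, which are below the shift of all genes.

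**Figure D5:**
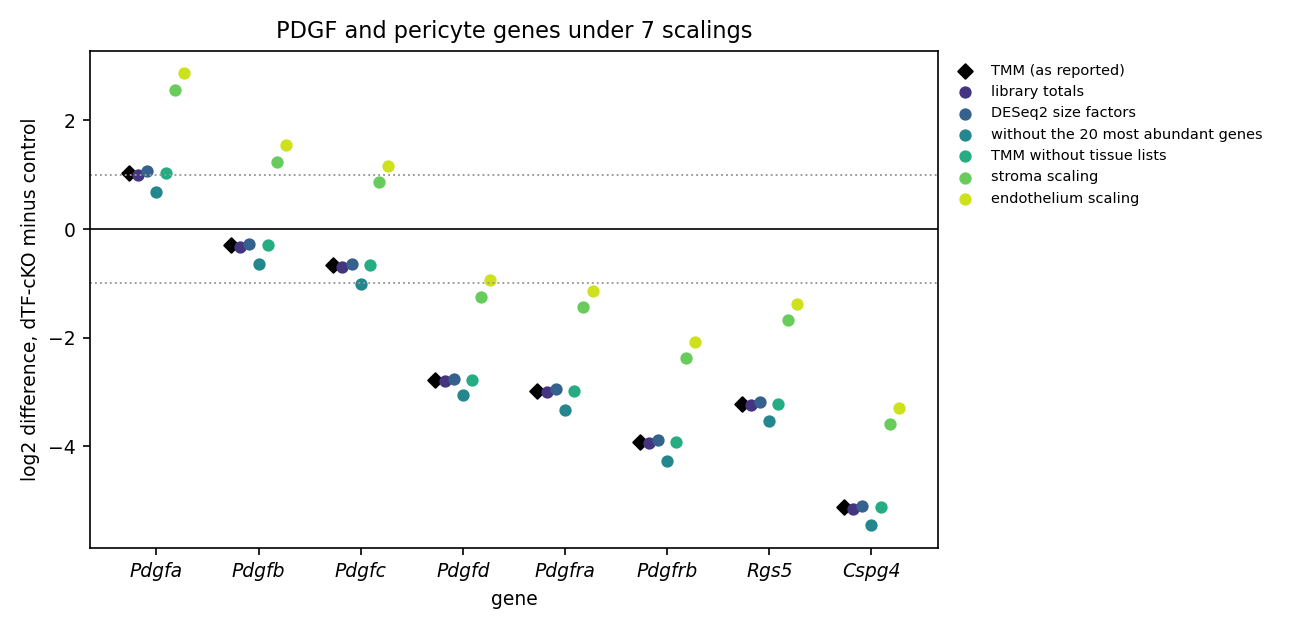
Log2 difference between the dTF-cKO and the control for the 8 genes under the reported TMM scaling (black diamonds) and 6 other scalings (circles); dotted lines mark 2-fold. Stromal and endothelial scaling lift all genes alike, and Pdgfd, Pdgfra, Pdgfrb, Rgs5 and Cspg4 remain below 0 while Pdgfb and Pdgfc cross it.

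For each gene, the 3 genes nearest in the pair of log2 differences from the control were sought among up to 7658 genes of at least 20 CPM. The measure is a distance over 3 libraries that share a control, so many genes lie close to a gene of common pattern: 406 lay within 0.25 of Pdgfb, 235 within 0.25 of Pdgfa and 197 within 0.25 of Pdgfc. Few lay near the pericyte genes and the beta receptor. Within 0.25 of Rgs5 were 2 genes, Angpt2 at 0.14 and Kcnj8 at 0.16. Angpt2, a ligand of the endothelial Tie2 receptor, had 10 counts in the dTF-cKO, 226 in the cKO library and 145 in the control, against 10, 235 and 138 for Rgs5. Within 0.25 of Pdgfrb was Ebf3 at 0.09, with 7, 145 and 171 counts in that order of libraries. Within 0.25 of Cspg4 was Emilin1, an elastic fibre protein, at 0.17, with 58, 1136 and 2431 counts. The gene nearest to Pdgfra was Prrx1, a homeobox gene of mesenchyme, at 0.03, with 114, 598 and 1146 counts, and 18 genes lay within 0.25 of it. Among the 8 genes themselves Pdgfd and Pdgfra were the closest pair, 0.32 apart, followed by Pdgfb and Pdgfc, 0.37 apart, and Pdgfa and Cspg4 were the farthest apart at 6.17. The first place is not firm, since Pdgfd rests on 3 counts in the dTF-cKO. With a prior count of 10, its log2 difference from the control there was -1.74, against -2.90 for Pdgfra.

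Neighbours on the chromosome did not all move with these genes. Csf1r starts 15537 bases beyond Pdgfrb, and its ratio to the control was 1.02 in the cKO (0.874 to 1.19) and 0.236 in the dTF-cKO (0.180 to 0.306), where Pdgfrb stood at 0.0636 (0.0453 to 0.0870). Kit lies 376701 bases beyond Pdgfra and was 1.87-fold lower in the dTF-cKO than in control mesenchyme (1.32 to 2.70). Chic2, on the other side of Pdgfra at 107518 bases, had 63 counts in the dTF-cKO, 54 in the cKO library and 56 in the control. Rgs4, a relative of Rgs5 45664 bases away, had 16 counts in the dTF-cKO, 30 in the cKO library and 13 in the control, so Rgs5 was low in the dTF-cKO while this neighbour was not. Nuf2, on the other side of Rgs5 at 124037 bases, was lower in the dTF-cKO. It had 21 counts there, 76 in the cKO library and 77 in the control.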

How the data were processed

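PolyA RNA was extracted with a Qiagen RNeasy kit and made into libraries with an Ion Total RNA-Seq kit, per the labels' protocols. The authors deposited raw read counts per gene symbol under a header reading Count; they used mm10, per the submitters' processing notes. Which aligner, counter, gene models and strandedness they used was not given in the sources used here.

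Counts were scaled with TMM factors (edgeR 4.0.16, R 4.3.3): 0.963 for the dTF-cKO, 1.06 for the cKO and 0.984 for the control. Log2 differences used a prior count of 2, and folds are ratios of scaled counts without it. Intervals of ratios are exact conditional (Clopper-Pearson) 95% intervals, and those of levels are exact Poisson ones. Genes averaging at least 5 CPM, 12127 of 43280, gave the background. Levels per length used the union of exons in GENCODE vM21. Symbols turned into dates (27 in all) stayed in the totals and are not named. Of 211 list entries 210 were found, Adgre1 as Emr1. With 1 library per genotype no p-value was computed; the interval and call code was tested on simulated data.

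The genes, lists and alternatives were chosen with earlier results of these data known. Named from the lists were up to 6 genes at least 2-fold different in any comparison, by mean CPM, or the 2 most abundant. Outside that rule are Kcnj8, Heyl, Notch3, Mcam, Cox4i2, Myh11, Synpo2, Actg2, Cnn1, Flt3, Foxf2, Atp13a5, Olig1, Olig2 and the Y-linked genes. They were chosen after their values were seen. Neighbouring genes were chosen from those near Pdgfrb, Pdgfra and Rgs5, where not all are named. Those flanking Pdgfa, Pdgfb, Pdgfc, Pdgfd and Cspg4 are not given. Prrx1, Ebf3, Emilin1 and Angpt2 were named by likeness. Other alternatives were library totals, DESeq2 1.42.0 size factors, totals leaving out the 20 top genes per library, TMM without tissue lists, prior counts of 0.5 and 10, size rules of 1.5-fold and 3-fold, calls with an interval excluding 1, no expression floor and a floor of 20 CPM.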

Additional observations from a re-analysis of the deposited data

How the results depend on the processing

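No paired analysis was possible because each genotype had 1 library, and for the same reason no replicate could be left out. Over 8 alternatives of scaling and prior count, the 6 genes called in the dTF-cKO against the control, the 6 called in the dTF-cKO against the cKO and the 1 called in the cKO against the control kept their sign in each comparison. A prior count does not turn a sign, and a scaling shifts all genes nearly alike. A kept sign therefore shows only that the difference was larger than any opposing shift. The count of 5 lower genes in the dTF-cKO against the control stayed within 1.5 times under every alternative run, and 1 gene was higher. That higher count became 0 with library totals, with prior count 10, without the 20 most abundant genes and with the 3-fold size rule, since the log2 difference of Pdgfa was then 0.99997, 0.997, 0.67 and, in the last case, unaltered at 1.03. It became 2 under the stroma scaling and 3 under the endothelium scaling. Those counts are below the shares of all genes called higher under these scalings, 69.4% and 75.9%. In the dTF-cKO against the cKO the 5 lower genes became 3 under the stroma and the endothelium scaling, where Pdgfra stood at -0.87 and -0.12 and Pdgfd at -0.92 and -0.18. Under those scalings 5.67% and 2.70% of all genes were lower. The 1 higher gene there became 0 without the 20 most abundant genes and with the 3-fold size rule, 2 under the stroma scaling and 3 under the endothelium scaling. Of all genes, 66.8% were higher under the stroma scaling and 82.9% under the endothelium scaling. In the cKO against the control the 0 lower genes became 2 under the endothelium scaling and 2 with the 1.5-fold size rule, Pdgfra and Cspg4 in both. The shares of all genes lower in those settings were 17.4% and 13.2%. The 1 higher gene, Rgs5, became 0 under the endothelium scaling, where its log2 difference was 0.55, and 0 with the 3-fold size rule. Those settings put 5.82% and 5.71% of all genes higher. The endothelium and stroma scalings moved the median of all genes by construction, to 2.24 and 1.49 in the dTF-cKO against the cKO, and were applied to each comparison separately. Depth limits the lowest values: Pdgfd, Rgs5 and Cspg4 rest on 3, 10 and 13 counts in the dTF-cKO.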
